A study of Homo sapiens with 12 samples.

Results

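The 7 genes described here, PRKDC, FASN, MKI67, SRRM2, AHNAK, PLEC and DYNC1H1, encode some of the longest coding mRNAs of human cells. Their protein-protected sites were chosen by position: a site belonged to a gene when its midpoint lay inside the gene's span on the gene's strand. By this rule 1599 of the 513381 sites in 6 replicate lists were theirs, 1085 found with ssRNase and 514 with dsRNase. The sites came from HEK293T, an established cell line derived from human embryonic kidney, and were mapped by protein interaction profile sequencing (PIP-seq). All cells were cross-linked with 1% formaldehyde for 10 minutes, and RNA stretches that survived a nuclease were sequenced. The nucleases were ssRNase (RNase ONE), specific for unpaired RNA, and dsRNase (RNase V1), specific for paired RNA. For each nuclease there were 3 footprint libraries, digested with protein in place, and 3 digestion controls, digested once SDS and proteinase K had taken the protein away. Each list sets 1 footprint library against its matched control, so the 12 libraries enter as 3 ssRNase lists and 3 dsRNase lists. The labels do not say whether replicates are separate cultures, so the spread between lists may be technical, and the lists give positions without read counts, so depth is unknown.

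Very long mRNAs are bound by the exon junction complex, by packaging proteins and by ribosomes over an unusually long coding region. In the gene such a coding region can lie in 1 giant exon or be scattered over many small exons with long introns between them. A site list made against the genome therefore shows either a dense block or a thin scatter, even where the mature mRNA is covered evenly.

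All positions are those of the authors' lists in hg19, and a span is the region used to assign sites. Among the enzymes, PRKDC encodes the catalytic subunit of the DNA-dependent protein kinase, which acts in DNA end joining, and its span is chr8:48685669-48872743 on the minus strand. FASN encodes fatty acid synthase, the enzyme that builds palmitate, and spans chr17:80036214-80056106 on the minus strand. Among the nuclear proteins, MKI67 encodes Ki-67, the proliferation marker that coats mitotic chromosomes, and spans chr10:129894925-129924649 on the minus strand. SRRM2 encodes a large serine- and arginine-rich protein of the spliceosome and of nuclear speckles, and spans chr16:2802330-2821413 on the plus strand. Among the scaffold and motor proteins, AHNAK encodes a giant scaffold protein under the plasma membrane and spans chr11:62201016-62314332 on the minus strand. PLEC encodes plectin, which links intermediate filaments to other cell structures, and spans chr8:144989321-145050913 on the minus strand. DYNC1H1 encodes the heavy chain of cytoplasmic dynein, the motor that moves cargo toward microtubule minus ends, and spans chr14:102430865-102517135 on the plus strand.

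The gene structures fall into 2 kinds. Lengths and exon counts were taken from the GENCODE release 29 transcript of each gene with the longest coding sequence (GRCh38), and no coordinate was carried over. In AHNAK the longest coding exon holds 98.1% of 17670 coding nt, in SRRM2 81.2% of 8256, in MKI67 70.1% of 9768 and in PLEC 44.2% of 14052. The other coding regions are split: PRKDC has 86 exons for 12384 coding nt, DYNC1H1 78 exons for 13938 and FASN 43 exons for 7533. FASN is nevertheless compact, with coding sequence equal to 37.9% of its span. The share is 6.62% for PRKDC, 15.6% for AHNAK, 16.2% for DYNC1H1, 22.8% for PLEC, 32.9% for MKI67 and 43.3% for SRRM2. The assigned spans of AHNAK (113317 nt) and PLEC (61593 nt) are longer than the transcripts used, which span 30931 and 35724 nt. Coding sequence is thus a larger part of those 2 transcripts than of the spans, and the place of both genes in this order depends on the span.

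The giant exons of AHNAK and MKI67 are built from repeats, and this bears on where reads can be placed. In AHNAK 20.8% of all 30-nt words of the coding sequence occur more than once, in MKI67 4.63% and in PLEC 1.07%, while the other 4 coding sequences hold no repeated 30-nt word. The word with the most copies in AHNAK occurs 9 times between coding positions 2608 and 14317, and the one in MKI67 occurs 3 times between positions 3304 and 6946. Both are shown 5′ to 3′ from the GENCODE release 29 transcripts, because a protected fragment of this length inside them cannot be assigned to 1 copy.
AHNAK: ggcccagactggcacctgaagatgcccaag
MKI67: ctggctggcttcaaagagctcttccagaca
The handling of reads with several possible positions is not stated in these sources, so counts inside the AHNAK and MKI67 repeats are uncertain.

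Lists of the 2 nucleases were of unequal length, which touches every count below: 57481 to 209922 sites with ssRNase and 21561 to 28413 with dsRNase. The minus strand held 56.6% to 58.8% of ssRNase sites and 63.2% to 78.4% of dsRNase sites, and 5 of the 7 genes lie on that strand. On the opposite strand of the 7 spans there was no site in any of the 6 lists, so all 1599 sites were on the strand of the gene. The 7 genes contributed 513, 178 and 394 sites to the ssRNase lists and 140, 196 and 178 to the dsRNase lists. These are 0.244%, 0.310% and 0.229% of the ssRNase lists, and 0.585%, 0.690% and 0.826% of the dsRNase lists, so the ranges did not overlap.

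Density of sites was first compared per length. Every site of a span was counted, in an exon or not, and the number was divided by the coding length. No site was placed in an exon, so this is not a density on the coding sequence itself. In SRRM2 the union of sites equalled 103% of the coding length. Per kb of coding sequence, FASN was the densest gene with ssRNase, at 11.5, 8.50 and 11.2 sites, and held 2.12, 3.72 and 3.85 with dsRNase. SRRM2 had 11.9, 4.60 and 9.93 sites per coding kb with ssRNase, against 2.30, 5.45 and 4.0 with dsRNase. PRKDC had 9.45, 2.58 and 6.46 with ssRNase, against 4.68, 4.76 and 5.09 with dsRNase. The 2 enzymes and SRRM2 thus formed the upper end with either nuclease. For PRKDC this place depends on dividing by the coding length, which is 6.62% of its span. The 3 dsRNase lists of PRKDC lay closer together than its ssRNase lists did. The means of the other 4 genes were lower. MKI67 averaged 3.34 ± 2.05 sites per coding kb with ssRNase and 2.08 ± 0.236 with dsRNase (SD, n = 3 lists each, as for the next 3 genes). PLEC averaged 2.44 ± 1.32 with ssRNase and 0.403 ± 0.0411 with dsRNase. DYNC1H1 averaged 2.25 ± 1.92 with ssRNase and 0.861 ± 0.625 with dsRNase, and AHNAK 2.04 ± 1.21 with ssRNase and 0.943 ± 0.261 with dsRNase. With ssRNase, neighbours in this order overlapped in their lists, so among PLEC, DYNC1H1 and AHNAK no rank can be read. With dsRNase every MKI67 list, at 1.95 to 2.35, lay above every list of those 3 genes. The 3 densities of PLEC with dsRNase were the lowest of all, but by a narrow margin that rests on the coding length. In dsRNase replicate 3 PLEC and DYNC1H1 had 6 sites each, or 0.427 and 0.430 per coding kb. Per kb of span PLEC was the higher of the 2 in that list, at 0.0974 against 0.0695. Of the 7 genes, only FASN and PLEC had every ssRNase list above every dsRNase list (p = 0.1 by a two-sided exact permutation test, which cannot go lower with 3 against 3 lists). The share of all features that separate in number of sites was not computed, so this count cannot be called unusual. Cut to the 21561 best-scoring sites of each list, FASN had 3.67 ± 1.08 sites per coding kb with ssRNase and 3.10 ± 0.884 with dsRNase, and PLEC 0.308 ± 0.205 with ssRNase and 0.308 ± 0.109 with dsRNase (SD, n = 3 lists each), so neither separation held at equal list length.

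**Figure D1:**
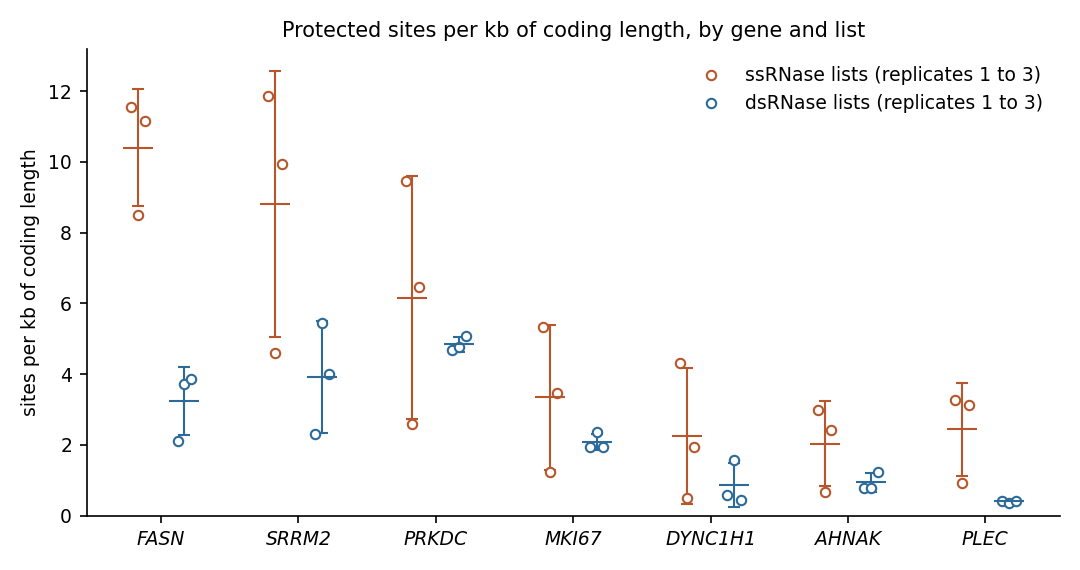
All sites of a span, in exons or not, per kb of coding length (y axis) in each of the 6 lists for the 7 genes (x axis). The ssRNase values stand left of dsRNase, points are lists, horizontal lines means and bars SD (n = 3). FASN and SRRM2 are highest with ssRNase, at means of 10.4 and 8.80, and PLEC is lowest with dsRNase, at 0.403.

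Per kb of span, which includes introns, the order changed. FASN had 3.94 ± 0.629 sites per kb with ssRNase and 1.22 ± 0.364 with dsRNase, and SRRM2 had 3.81 ± 1.63 with ssRNase and 1.69 ± 0.682 with dsRNase (SD, n = 3 lists each). PRKDC, with a span of 187.075 kb, had 0.408 ± 0.228 with ssRNase and 0.321 ± 0.0141 with dsRNase. Across the 7 genes the share of the span that is coding and the number of ssRNase sites per kb of span had a Pearson correlation of 0.863 and a Spearman correlation of 0.857, and the dsRNase values were 0.863 and 0.643. These are descriptions over 7 genes that share the same lists, with no test. The long assigned spans of AHNAK and PLEC lower both of their values.

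To compare the nucleases, the site bases of a gene were expressed per 1000000 site bases of the list. This share corrects for list length but not for read depth. The share of PRKDC was 471.2, 456.3 and 405.2 with ssRNase, against 2415, 2029 and 3028 with dsRNase. The share of MKI67 was 259.9, 189.7 and 192.3 with ssRNase, against 802.7, 785.4 and 866.2 with dsRNase. In both genes even the lowest dsRNase list lay far above the highest ssRNase list. The ssRNase mean of PRKDC was 0.178 times the dsRNase mean, and that of MKI67 0.262 times. On the log2(share + 20) scale the difference, ssRNase minus dsRNase, was -2.42 ± 0.21 for PRKDC and -1.85 ± 0.19 for MKI67 (SE). Both passed the limma test across all features (adjusted p = 0.00445 for PRKDC and 0.00472 for MKI67), as did 7.01% of the 31393 features in that direction. Both calls depended on having all 3 ssRNase lists: without ssRNase replicate 1, 2 or 3 the limma adjusted p was 0.072, 0.118 and 0.110 for PRKDC and 0.143, 0.265 and 0.239 for MKI67, with the direction kept. Over 15 alternatives the adjusted p ran from 5.66e-05 to 0.118 for PRKDC and from 0.000333 to 0.265 for MKI67.

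AHNAK and DYNC1H1 leaned the same way with more scatter. AHNAK had shares of 235.2, 169.8 and 232.2 with ssRNase, against 410.5, 373.8 and 1019 with dsRNase, where replicate 3 stood above the other 2. DYNC1H1 had shares of 268.2, 97.1 and 159.0 with ssRNase, against 287.8, 795.6 and 287.9 with dsRNase, where replicate 2 stood out. Groups did not overlap in either gene, yet neither difference passed (AHNAK -1.28 ± 0.41, limma adjusted p = 0.0605; DYNC1H1 -1.23 ± 0.52, limma adjusted p = 0.122). For DYNC1H1 the gap was narrow, with 268.2 in the highest ssRNase list and 287.8 in the lowest dsRNase list. Without dsRNase replicate 2 AHNAK passed (limma adjusted p = 0.0462), and over 15 alternatives its adjusted p ran from 0.0159 to 0.632 and that of DYNC1H1 from 0.0157 to 0.820.

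In SRRM2, FASN and PLEC the nucleases overlapped when all sites were used. SRRM2 had shares of 649.3, 742.4 and 644.8 with ssRNase, against 552.6, 1231 and 1562 with dsRNase (-0.58 ± 0.40 on the log2 scale, limma adjusted p = 0.332). FASN had shares of 499.7, 1105 and 565.8 with ssRNase, against 619.3, 798.7 and 1094 with dsRNase (-0.26 ± 0.37, limma adjusted p = 0.695), and its sign turned to 0.05 when shares were scaled within strands. PLEC had shares of 214.2, 230.2 and 282.8 with ssRNase, against 204.0, 180.8 and 246.6 with dsRNase (0.19 ± 0.20, limma adjusted p = 0.559). Without dsRNase replicate 1 SRRM2 passed (-1.01, limma adjusted p = 0.0357, within a range of 0.0357 to 0.914 over its alternatives). At equal list length all 3 signs turned (SRRM2 0.24, FASN 0.61, PLEC -0.39), none passed limma, and the FASN shares no longer overlapped, at 1370 ± 205.0 with ssRNase and 901.6 ± 209.6 with dsRNase (SD, n = 3 lists each). A p above the threshold in 6 lists does not show that these 3 shares are equal.

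Read against all features, the lean toward dsRNase is common among well-covered features. Each gene is here 1 feature of 19.1 to 187.1 kb, while all other features are windows of 10 kb. The percentages and percentiles below thus set unlike units side by side. PRKDC was at -2.42 as 1 feature, and its 18 windows of 10 kb had a median of -1.72. In 4 of the 7 genes the lists did not overlap and dsRNase was higher, against 9.52% of all 31393 features but 47.5% of the 4463 features with a site in all 6 lists, as these genes have. By limma 2 of the 7 were called higher with dsRNase, against 7.01% of all features, and none higher with ssRNase, against 26.6%, also at an unadjusted p under 0.05. Among the features with a site in all 6 lists, tested alone, 4 of the 7 were called higher with dsRNase (PRKDC, MKI67, AHNAK and DYNC1H1), against 39.1%, and none higher with ssRNase, against 2.11%. The median difference was 0.43 over all features and -0.68 over those with a site in all 6 lists, where PRKDC lay at percentile 3.45, MKI67 8.67, AHNAK 22.4, DYNC1H1 24.5, SRRM2 55.7, FASN 70.6 and PLEC 86.4. Scaling within strands moved the median over all features to 0.72, and the 7 genes then had -2.13 (PRKDC), -1.92 (DYNC1H1), -1.58 (MKI67), -1.23 (SRRM2), -1.01 (AHNAK), 0.05 (FASN) and 0.49 (PLEC). Among features with a site in all 6 lists, PRKDC and MKI67 thus stood toward the dsRNase end and PLEC toward the ssRNase end. Over all features PLEC was at percentile 40.7, below the median.

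**Figure D2:**
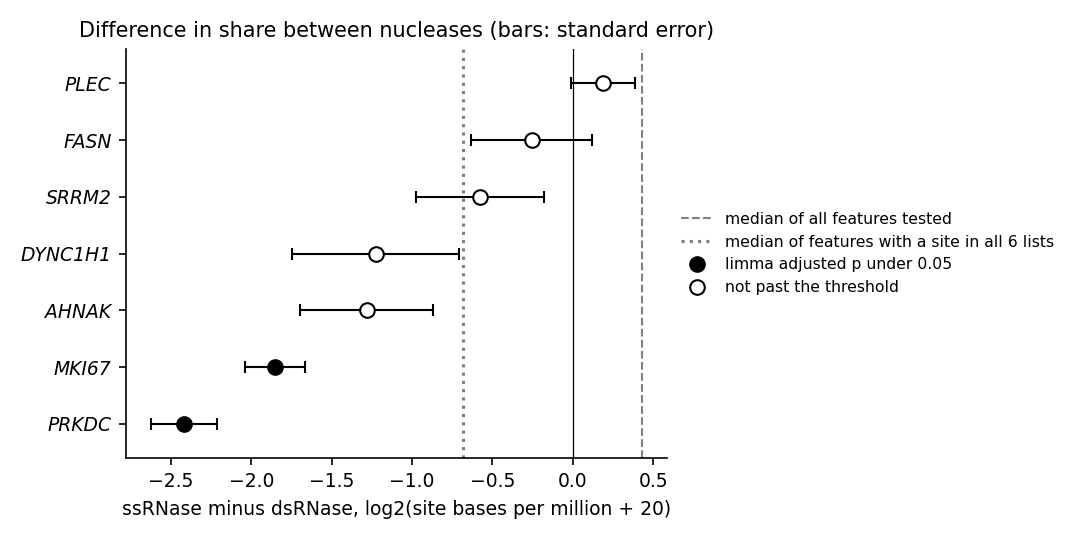
Difference in share between the nucleases, ssRNase minus dsRNase on the log2(share + 20) scale (x axis), for each gene (y axis), with the standard error as bars. PRKDC at -2.42 and MKI67 at -1.85 (filled) passed the limma threshold, and the lines mark the median of all features, 0.43, and of features with a site in all 6 lists, -0.68.

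Cutting the spans into stranded windows of 10 kb showed how far the differences reached. Of 51 windows whose centre lay in a span, 40 had sites in enough lists to be tested, and 15 were higher with dsRNase by limma, against 7.04% of all windows. None was higher with ssRNase by limma, against 26.6% of all windows, and 1, in PLEC, leaned that way at an unadjusted p under 0.05. Tested among windows with a site in all 6 lists, 16 of 25 were higher with dsRNase, against 39.1%, and none with ssRNase, against 2.1%. In the test of all windows PRKDC supplied 12 of its 18 windows, MKI67 2 of 3 and AHNAK 1 of 3, so called windows made up most but not all of PRKDC. The 6 PRKDC windows that did not pass included chr8:48720001-48730000 (0.10 ± 0.48) and chr8:48780001-48790000 (0.05 ± 0.44). Its largest difference was in chr8:48840001-48850000, with shares of 42.7, 0 and 21.8 with ssRNase against 386.2, 222.7 and 349.2 with dsRNase (-3.15 ± 0.47, limma adjusted p = 0.00851). In chr8:48750001-48760000 the shares were 11, 0 and 13.2 with ssRNase against 142.1, 177.7 and 195.3 with dsRNase (-2.80 ± 0.26, limma adjusted p = 0.00459). The MKI67 window at the 3′ end, chr10:129890001-129900000, had shares of 67.3, 50.4 and 59.1 with ssRNase against 216.2, 208.4 and 261.6 with dsRNase (-1.65 ± 0.18, limma adjusted p = 0.00509). The 9 windows of DYNC1H1, 3 tested ones of PLEC, 2 of SRRM2 and 2 of FASN passed in neither direction. Scaled within strands the count was again 15, but 12 of these windows were the same: 1 of AHNAK and 2 of PRKDC were lost, and 2 of DYNC1H1 and 1 of SRRM2 passed, higher with dsRNase. Without ssRNase replicate 1, 2 or 3 the 15 calls became 2, 0 and 0.

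Along the genes the sites followed 3 layouts: a block, a scatter and near-complete cover. AHNAK was the block. Its sites reached over 30777 nt at the 5′ end of the span and left the last 82379 nt, 72.7% of the span, without a site in any list. The GENCODE transcript used for AHNAK itself spans 30931 nt in GRCh38, about the reach of the sites. A stretch as long as its longest exon (18170 nt), placed where it held the most ssRNase sites, was chr11:62283416-62301585. That stretch, 16% of the span, held 84.9%, 75.0% and 83.7% of the ssRNase sites, and all 14, 14 and 22 dsRNase sites. The fullest 1 kb bin with ssRNase began 13.0 kb from the 5′ end and held 340, 110 and 337 site bases with ssRNase and 51, 56 and 113 with dsRNase.

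MKI67 and SRRM2, the other genes with 1 dominant coding exon, were covered more widely. In MKI67 the same 1 kb bin was the fullest with either nuclease, chr10:129896650-129897649 near the 3′ end, with 409, 147 and 134 site bases with ssRNase and 84, 166 and 176 with dsRNase. The longest stretch of MKI67 without a site in any list was 4315 nt. SRRM2 had no such stretch over 909 nt, and the union of its sites covered 8526 nt, or 44.7% of the span. Sites touched 95.0%, 80.0% and 95.0% of its 1 kb bins with ssRNase and 40.0%, 75.0% and 70.0% with dsRNase.

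The 3′ end of SRRM2 differed between the nucleases. The last 20% of the span held 31.5%, 37.5% and 36.6% of its site bases with ssRNase, against 0%, 8.22% and 13.7% with dsRNase. The means were 35.2% ± 3.28 with ssRNase and 7.31% ± 6.90 with dsRNase (SD, n = 3 lists each; two-sided exact permutation p = 0.1, the smallest possible), and the lists did not overlap. With lists of equal length the gap remained, at 40.5% ± 3.36 with ssRNase and 7.44% ± 6.93 with dsRNase. Its fullest bin with ssRNase lay in that stretch, chr16:2819330-2820329, with 713, 392 and 680 site bases with ssRNase against 0, 0 and 36 with dsRNase. The fullest bin with dsRNase was chr16:2814330-2815329, with 609, 33 and 432 with ssRNase and 123, 214 and 280 with dsRNase. A single ssRNase site of 217 nt, the longest of any of the 7 genes, lay at chr16:2820177-2820393. Of the other 6 genes, AHNAK had no site in the last 20% of its span in any list, so its nucleases could not be compared there. In the remaining genes the share of site bases in the last 20% of the span did not separate the nucleases.

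FASN was covered nearly from end to end. No site of any list lay in the first 1787 nt of the span, and beyond that the longest stretch without a site was 1114 nt. Sites touched 95.0%, 85.0% and 95.0% of the 1 kb bins with ssRNase and 60%, 60% and 70.0% with dsRNase, and the union of sites covered 35.9% of the span. The fullest bin with ssRNase was the last one, at the 3′ end, with 501, 308 and 469 site bases with ssRNase and 66, 55 and 52 with dsRNase. The fullest 10% of bins held 19.7% ± 0.382 of the site bases with ssRNase and 34.3% ± 4.78 with dsRNase (SD, n = 3 lists each). The lists did not overlap, but this share rises where sites are few. At equal list length it was 26.0% ± 2.17 with ssRNase and 34.4% ± 4.81 with dsRNase, again without overlap. With all sites SRRM2 and PLEC separated in the same direction, but PLEC had only 6, 5 and 6 dsRNase sites, which alone put its dsRNase share at 100%. At equal list length those 2 overlapped, with PLEC at 100% in every list. PRKDC and MKI67 then separated in the other direction, but this was fixed by how few ssRNase sites were left. Those touched 12, 7 and 13 of 188 bins in PRKDC and 3, 3 and 4 of 30 in MKI67. Such small numbers put the ssRNase share at or near 100%, so no difference in concentration can be read.

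PRKDC and DYNC1H1 were scatters. The sites of PRKDC began 74 nt from the 5′ end, ended 111 nt from the 3′ end and left no stretch longer than 8466 nt free, and their mean relative position (0 at the 5′ end, 1 at the 3′ end) was 0.516 ± 0.0381 with ssRNase and 0.501 ± 0.0432 with dsRNase (SD, n = 3 lists each). The bins named were chosen as the fullest, and their bases are not corrected for list length. In PRKDC chr8:48751744-48752743, the fullest with dsRNase, held 0, 0 and 61 site bases with ssRNase and 108, 147 and 119 with dsRNase. The fullest with ssRNase, chr8:48700744-48701743, held 135, 45 and 194 with ssRNase and 47, 48 and 71 with dsRNase. In DYNC1H1 the fullest ssRNase bin, chr14:102451865-102452864, held 327, 51 and 124 with ssRNase and 0, 15 and 0 with dsRNase. The longest stretch of DYNC1H1 without a site was 10731 nt and began shortly after the first sites at the 5′ end.

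PLEC lay between block and scatter, with its sites in the 3′ part of the span. The mean relative position was 0.808 ± 0.0109 with ssRNase and 0.786 ± 0.0921 with dsRNase (SD, n = 3 lists each). A stretch of 16057 nt, 26.1% of the span, had no site in any list. The GENCODE transcript used for PLEC spans 35724 nt in GRCh38, against 61593 nt for the hg19 span, and PLEC is known for several alternative first exons. Only 6, 5 and 6 dsRNase sites fell in PLEC, against 46, 13 and 44 ssRNase sites, so its dsRNase positions rest on very few sites. Sites touched 40.3%, 17.7% and 30.6% of its bins with ssRNase and 9.68%, 4.84% and 8.06% with dsRNase, and the lists overlapped at equal list length (6.45% ± 4.27 with ssRNase and 5.91% ± 2.46 with dsRNase; SD, n = 3 lists each).

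**Figure D3:**
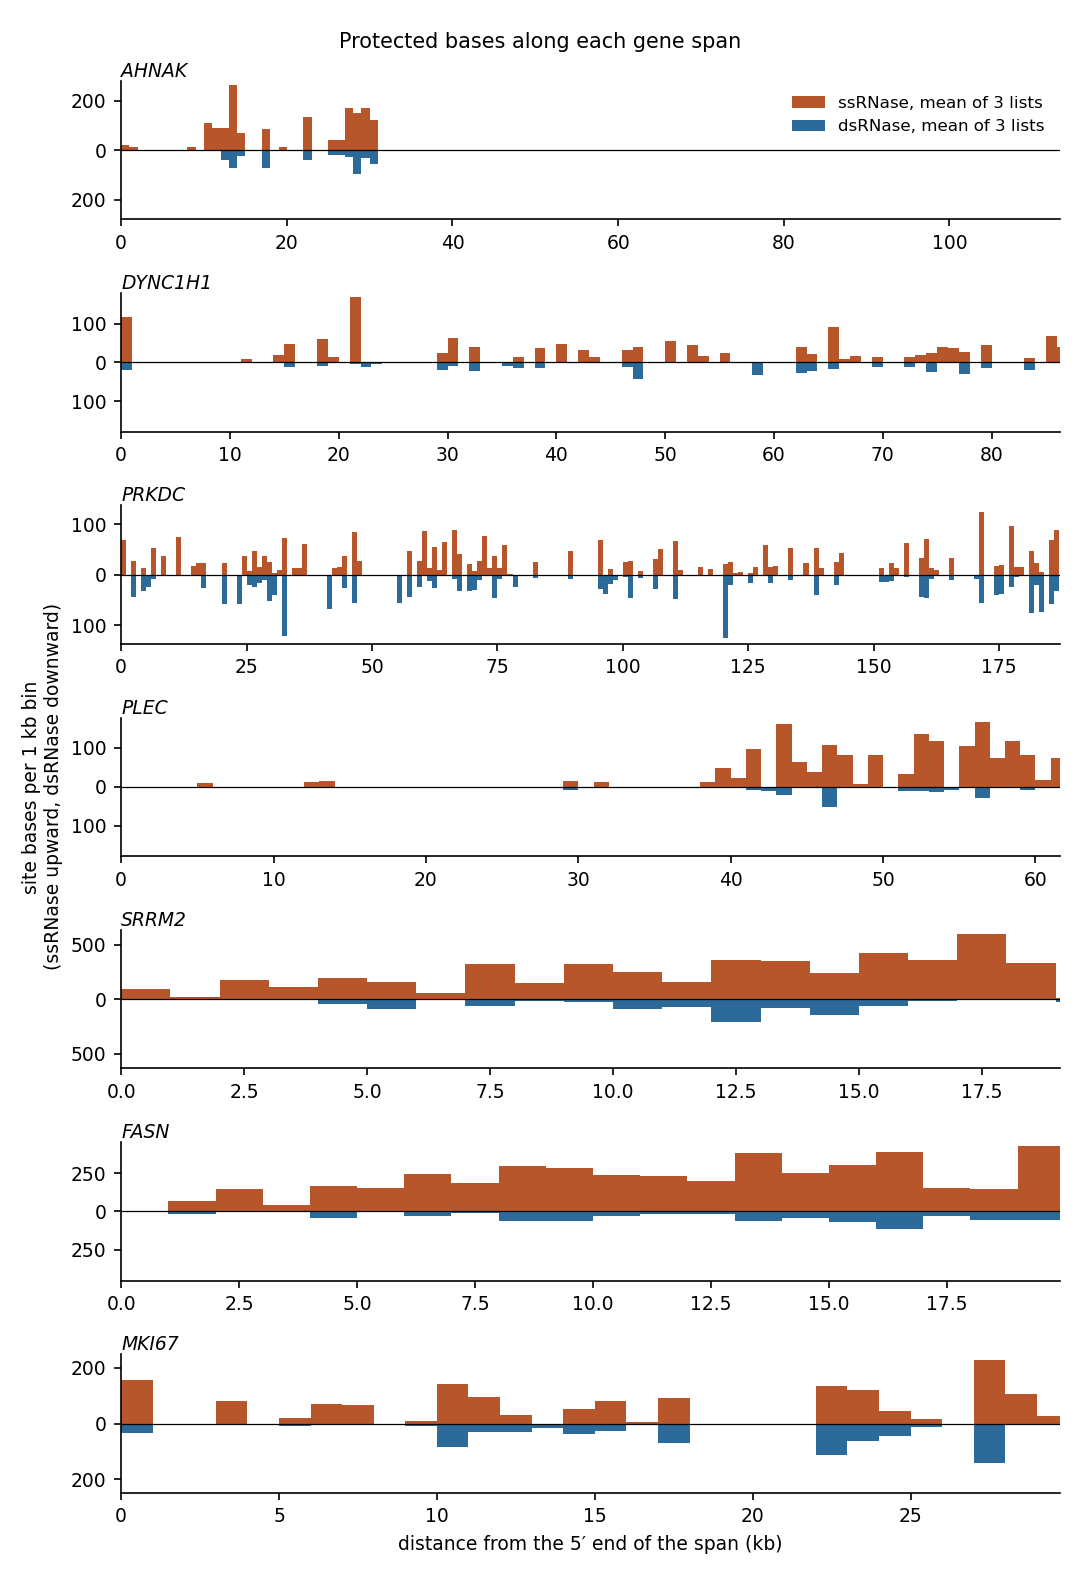
Mean site bases per 1 kb bin (y axis, ssRNase upward, dsRNase downward, not corrected for list length) along each gene span from its 5′ end (x axis, kb), 1 panel per gene with its own scale. AHNAK is empty over its last 82379 nt. PRKDC has scattered sites from end to end, whose union is 4.94% of the span. In SRRM2 the last 20% of the span has much ssRNase and little dsRNase signal.

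The count of bins touched depends on list length. In AHNAK, DYNC1H1, PRKDC and MKI67 more bins were touched with ssRNase when all sites were used, on overlapping ranges. When each list was cut to its 21561 best-scoring sites, the order turned: PRKDC had sites in 5.67% ± 1.71 of bins with ssRNase and 21.5% ± 3.25 with dsRNase, and MKI67 in 11.1% ± 1.92 with ssRNase and 35.6% ± 3.85 with dsRNase (SD, n = 3 lists each). In FASN the order held, at 81.7% ± 7.64 with ssRNase and 63.3% ± 5.77 with dsRNase.

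Sites in the 7 genes were longer with ssRNase, as in the lists at large, where the medians were 42 to 44 nt with ssRNase and 33 to 34 nt with dsRNase. The gap was widest in SRRM2, at 61.0, 49.0 and 53.5 nt with ssRNase against 21.0, 26.0 and 33.0 nt with dsRNase. FASN followed at 49.0, 48.0 and 48.0 nt with ssRNase against 31.5, 27 and 30 nt with dsRNase. PRKDC had a narrow gap, at 40.0, 39.0 and 40.0 nt with ssRNase against 34.5, 31.0 and 34.0 nt with dsRNase. The lists separated in 6 of the 7 genes (two-sided exact permutation p = 0.1 each), and in DYNC1H1 they met at 37.0 nt. How many of all features separate in length was not computed, so this count cannot be called unusual. The longest dsRNase site of the 7 genes was 105 nt, in MKI67 at chr10:129914095-129914199.

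The authors gave each site a score whose scale is not stated, so it was read as a percentile within its list. The median site of PRKDC stood at percentile 52.6 ± 6.32 with ssRNase and 67.4 ± 5.95 with dsRNase (SD, n = 3 lists each, as below). That of AHNAK stood at 49.4 ± 4.95 with ssRNase and 65.8 ± 6.58 with dsRNase, and that of MKI67 at 49.0 ± 1.67 with ssRNase and 59.4 ± 4.72 with dsRNase. FASN went the other way, at 72.3 ± 5.64 with ssRNase and 55.3 ± 2.21 with dsRNase. In these 4 genes the lists did not overlap, and in SRRM2, PLEC and DYNC1H1 they did. At equal list length only PRKDC and AHNAK of these 4 remained separate. MKI67 (41.9 ± 7.42 with ssRNase and 53.5 ± 8.55 with dsRNase) and FASN (52.7 ± 7.46 with ssRNase and 51.7 ± 5.34 with dsRNase) then overlapped. The share of all features that separate in score was not computed, so a count of 4 genes cannot be called unusual.

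Recurrence was counted as an overlap of at least 1 nt on the same strand. Of the ssRNase sites in the 7 genes, 74.8% ± 16.6 recurred in another ssRNase list, against 68.3% ± 19.3 of all ssRNase sites, and 36.0% ± 4.36 met a dsRNase site, against 17.9% ± 4.56 (SD, n = 3 lists each). Of the dsRNase sites in the 7 genes, 59.9% ± 2.80 recurred with dsRNase, against 51.4% ± 3.50 of all dsRNase sites, and 67.0% ± 2.69 met a ssRNase site, against 75.3% ± 1.35. The last of these varied between genes: 89.6% ± 12.4 of FASN dsRNase sites met a ssRNase site, 80.8% ± 6.37 in SRRM2, 76.0% ± 15.1 in AHNAK, 71.1% ± 18.4 in PLEC, 63.2% ± 10.6 in MKI67, 54.4% ± 2.98 in PRKDC and 40.4% ± 20.7 in DYNC1H1. Of the PRKDC dsRNase sites 71.2% ± 2.55 recurred in another dsRNase list. Recurrence rises with the number of sites in the lists searched, and pairs share lists, so no test is given.

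The authors' merged list over both nucleases, which carries no replicate error, held 710 sites in the 7 genes. Both nucleases contributed to 27.5% of them, against 12.0% of all 293016 merged sites. ssRNase alone gave 57.7% in the 7 genes, against 83.4%, and dsRNase alone 14.8%, against 4.57%. The 7 genes thus drew less on ssRNase alone and more on the other origins than the list at large. FASN and SRRM2 had the highest shares from both, at 39.2% and 37.0%, and PLEC the lowest, at 14.1%. Sites from dsRNase alone made up 22.6% in PRKDC and 20% in MKI67, but 6.19% in FASN.

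**Figure D4:**
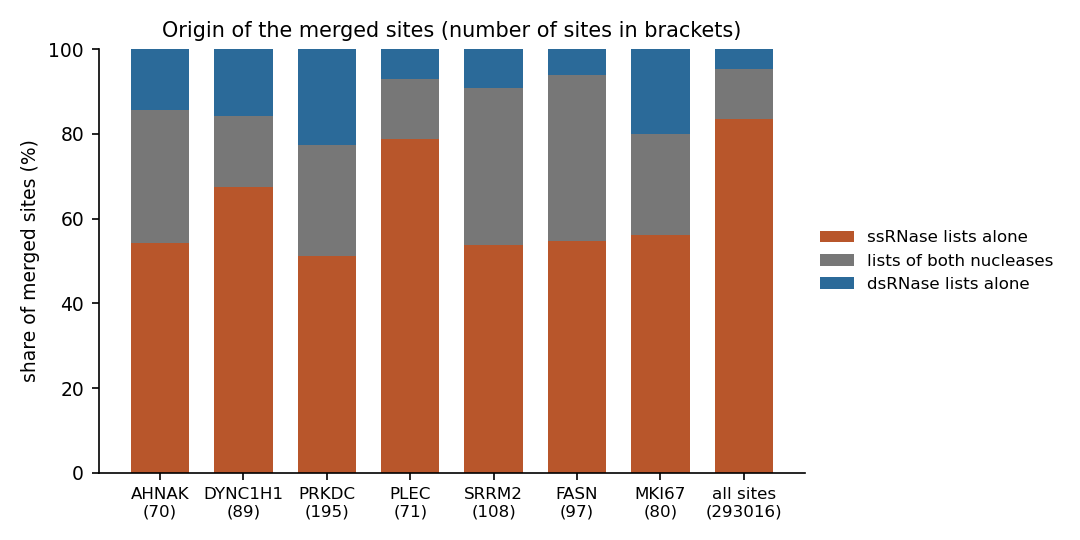
Share of merged sites (y axis, %) that came from ssRNase lists alone, from lists of both nucleases and from dsRNase lists alone, for each gene and for all merged sites (x axis, number of merged sites in brackets). PRKDC and MKI67 have the tallest segments from dsRNase alone, 22.6% and 20%, against 4.57% for all sites.

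Sites from all 6 lists went into 12 merged sites, 1.69% of the 710, against 0.696% of all merged sites. PRKDC had 6 of them, SRRM2 3, and AHNAK, FASN and MKI67 1 each, while DYNC1H1 and PLEC had none. The longest in PRKDC, chr8:48826506-48826623, held 118, 67 and 67 site bases with ssRNase and 45, 46 and 79 with dsRNase. The next, chr8:48711859-48711972, held 100, 26 and 84 with ssRNase and 67, 33 and 40 with dsRNase, and chr8:48839812-48839923 held 41, 37 and 45 with ssRNase and 62, 68 and 92 with dsRNase. That last site was the only one of the 12 with more bases in each dsRNase list than in any ssRNase list. In SRRM2 the sites were chr16:2806341-2806607, chr16:2807498-2807580 and chr16:2810097-2810226, of which the first, at 267 nt, was the longest of the 12. The SRRM2 site held 244, 114 and 179 site bases with ssRNase and 21, 65 and 40 with dsRNase. The single sites of the other genes were chr17:80047821-80048046 in FASN, chr10:129896714-129896893 in MKI67 and chr11:62286203-62286299 in AHNAK. All 3 had more bases in ssRNase lists on average. The FASN site held 171, 130 and 210 site bases with ssRNase and 28, 67 and 43 with dsRNase. The MKI67 site lay inside the fullest bin of that gene and held 177, 100 and 85 with ssRNase and 13, 76 and 51 with dsRNase.

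Ordered by the GC content of their coding sequences, the 7 genes were also ordered by their share difference. Coding GC was 45.9% in PRKDC, 47.5% in MKI67, 49.3% in AHNAK, 51.3% in DYNC1H1, 55.6% in SRRM2, 65.3% in FASN and 67.0% in PLEC, and the log2 difference increased in the same order (Pearson 0.940, Spearman 1.0 over 7 genes). With shares scaled within strands the values were 0.924 and 0.821. At equal list length the order did not hold: the log2 difference was then -3.01 ± 0.83 (SE) in DYNC1H1, the most negative, and -0.39 in PLEC, below SRRM2 at 0.24 and FASN at 0.61. Few ssRNase sites were left there, 0, 1 and 3 in the DYNC1H1 lists and 1, 6 and 6 in the PLEC lists. The 7 points share the same 6 lists and were few and chosen with results known, so this is a description, and the part of base composition in the difference was not tested. By the distance between their 6 log2 shares, the most alike pair was PRKDC and MKI67 (0.803) and the least alike PRKDC and PLEC (3.22).

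**Figure D5:**
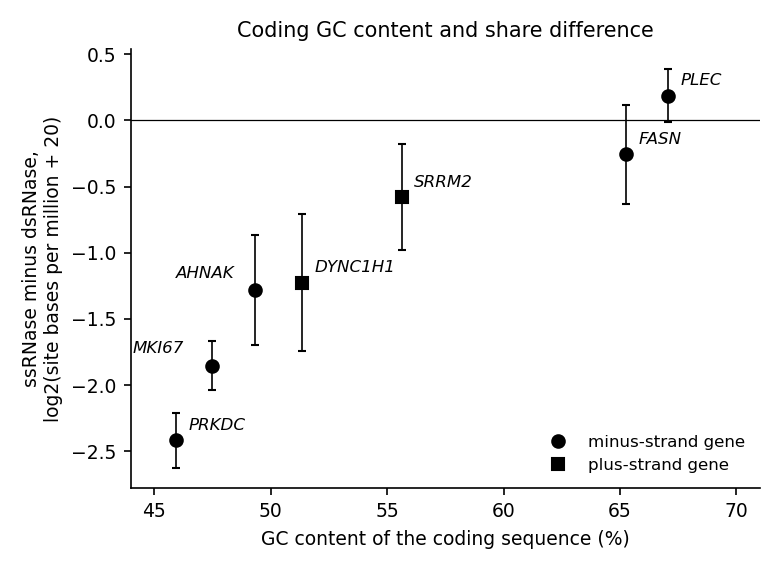
GC content of the coding sequence (x axis, %) against the share difference, ssRNase minus dsRNase on the log2(share + 20) scale (y axis, bars standard error), 1 point per gene, circles for minus-strand and squares for plus-strand genes. PRKDC has the lowest GC (45.9%) and the most negative difference (-2.42), and PLEC the highest GC (67.0%) and a difference of 0.19, the only positive one with all sites and this scaling; at equal list length PLEC is at -0.39 and SRRM2 and FASN are positive.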

How the data were processed

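The labels' protocols describe formaldehyde cross-linking, digestion with a nuclease before or after removal of protein, reversal of cross-links, small-RNA libraries and normalisation with a duplex-specific nuclease, a step that lowers abundant sequences and whose effect was not measured. Per the submitters' processing notes, cutadapt 0.9.5 and TopHat2 2.0.9 were used with build hg19. Per the names of the deposited lists, the site caller was CSAR, with its false discovery rate held at 5%. The authors deposited, for each site, start and end positions, read here as 1-based and inclusive, and a score of unstated scale. No read counts are in the lists, so no count model was used.

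The members, their spans and all lists and tests were chosen with earlier results of these data known. Shares were site bases of a gene per 1000000 site bases of the list. For the moderated test (limma 3.58.1, R 4.3.3), each gene span was 1 feature and all other sites fell in stranded windows of 10000 bp. The test used log2(share + 20), features with a site in at least 3 of 6 lists, the Benjamini-Hochberg method over all features and a threshold of 0.05. The added constant shrinks differences of features with small shares. Single values were compared by two-sided exact permutation tests, whose smallest p, 0.1, cannot pass the threshold. On simulated lists limma recovered most of the size of increases in well-covered features but understated strong decreases, and called few moderate changes. Its false calls were nearly all of sparse features higher with ssRNase. Coding sequences were those of GENCODE release 29 (GRCh38). Exon or intron location of single sites was not analysed here, since the annotation used has another build. All 7 genes are named by rule, within them the fullest bin and the longest site of each nuclease, the windows that passed with the largest differences, and merged sites present in all 6 lists. Python 3.11.15 was used with pandas 2.3.3, numpy 2.4.6, matplotlib 3.10.9 and scipy 1.17.1.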

Additional observations from a re-analysis of the deposited data

How the results depend on the processing

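Differences below are ssRNase minus dsRNase. The 2 limma calls, PRKDC and MKI67, became 4 genes when numbers of sites replaced site bases and 4 among features with a site in all 6 lists, and ranged from 0 to 3 when 1 list was left out. The 15 window calls ranged from 0 to 18 in the same way. With the replicate number as a block (replicate block) both limma counts were 0, PRKDC and MKI67 stood at an adjusted p of 0.0515 each, and 11351 features and 11366 windows had an unadjusted p under 0.05. Same-numbered lists did not deviate together (correlations 0.0174, -0.0633 and -0.0339 over 31393 features). Such correlations cannot show whether the numbers pair the lists, so the block fit is not set aside by them. The directions of PRKDC, MKI67, AHNAK and DYNC1H1 in share held under every alternative run. Other shares turned: FASN on the log2 scale to 0.0497 within strands, 0.0998 with the better-scoring 50% of sites and 0.61 at equal list length, and as a share to 66.95, 97.15 and 468.1, with a range from -304.6 to 14.58 when 1 list was left out. At equal list length SRRM2 turned to 0.24 (178.4 as a share) and PLEC to -0.39 (-17.09 as a share), and PLEC to -1.35 as a share by numbers of sites. The mean share difference over the 7 genes, -548.6, was -1048 within strands. With all sites the mean difference over the 7 genes was 2.74 sites per coding kb. At equal list length the mean difference in sites per kb was -0.147 in place of 0.884 (AHNAK -0.0941, DYNC1H1 -0.0966, PRKDC -0.201, SRRM2 -0.279, MKI67 -0.572, FASN 0.218, PLEC 0). In percent of bins touched it was -2.53 in place of 15.3 (AHNAK -3.80, DYNC1H1 -9.20, PRKDC -15.8, MKI67 -24.4, PLEC 0.538), and PRKDC ranged from -1.42 to 12.2 when 1 list was left out. The mean share in the fullest bins differed by 9.22 in place of -14.3, and the mean relative position by 0.0225 in place of -0.0209 (PRKDC -0.0198). Left-out lists gave -0.00426 to 0.0384 for the position in PRKDC and -0.0189 to 0.0718 in PLEC. With 50% overlap, and with 50% reciprocal overlap, 18.6% and 17.3% of ssRNase sites in the 7 genes met a dsRNase site, 51.3% and 44.4% of dsRNase sites recurred with dsRNase, and 54.7% and 30.7% met a ssRNase site. The SRRM2 gap in the last 20% of the span, 27.9 percentage points, ranged from 21.2 by numbers of sites to 33.1 at equal list length. The causes of these shifts were not tested, beyond that fewer sites are compared at equal length. The unequal list lengths and the unknown depth limit every count, PLEC and DYNC1H1 rest on as few as 5 and 6 dsRNase sites in a list, and a stretch without a site was not detectably protected at this depth.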
